A study of Mus musculus with 41 samples.

Results

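The genes described here are the chemokines and chemokine receptors of the mouse, chosen by name as every symbol made of Ccl, Cxcl, Ccr, Cxcr, Cx3cl, Cx3cr or Ackr followed by a digit. The rule found 60 of the 24371 genes in the 4 deposited count tables and used no measured value. The 60 genes were 24 CC ligands, 13 CXC ligands, 1 CX3C ligand, 11 CC receptors, 6 CXC receptors, 1 CX3C receptor and 4 atypical receptors.

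Chemokines are small secreted proteins that are held on heparan sulfate and steer moving cells through G-protein-coupled receptors on those cells. Some, such as Cxcl12 with its receptor Cxcr4, are made steadily in developing tissue, while others, such as Ccl2, Cxcl1 and Cxcl2, are switched on by the transcription factor NF-kB during inflammation, a class of genes that glucocorticoids are known to restrain. The atypical receptors (Ackr) bind and remove chemokines without the usual G-protein signal. In lung, Cxcl12 is known as a product of mesenchyme and Cxcl15, also called lungkine, as a product of epithelium.

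RNA came from fetal mouse lung at E18.5, a late embryonic day shortly before birth, and addressed what dexamethasone, a synthetic glucocorticoid, does in the fetal lung. In the mesenchyme experiment, dams were injected at E18.5 with 1 mg/kg dexamethasone or with saline, and fetal lungs were taken 2 hours later and pooled by genotype. All 4 dexamethasone and both saline pools came from fetuses carrying Twist2Cre and the Rosa26mT/mG reporter, in which cells with a history of Cre, here driven from Twist2, turn from red to green, and the green, tdTomato-negative cells were sorted. In the fraction experiment, cells with CD106, the adhesion protein encoded by Vcam1, made up 2 libraries and cells without it another 2, with no treatment, genotype or strain given in the labels. A further CD106+ library was labelled as treated with 1 mg/kg dexamethasone, with no time after injection given. In the single-cell experiment, dams of wild type C57Bl6/J mice were injected at E17.5 with 2 mg/kg dexamethasone or saline, and 15 and 11 cells of lungs taken 24 hours later were profiled. No animal is named for any cell, so each of these groups is 1 sample. Another 4 chromatin accessibility samples were not analysed here.

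Bulk libraries held 1670896 to 7133941 counts and cells 215623 to 1787997. Levels are CPM, the counts of a gene scaled to a common library total, which do not correct for gene length and so do not rank different genes. Mesenchyme marker genes summed to 21384 to 35274 CPM in the mesenchyme pools, although Twist2 itself stayed at 0 to 0.900 CPM. Vcam1 stood at 551 and 687 CPM in CD106+ against 1.35 and 3.00 CPM in CD106- libraries. Fkbp5, a target gene of glucocorticoids, stood at 176 to 260 CPM in dexamethasone mesenchyme pools against 28.7 and 40.7 CPM in saline pools. It stood at 49.6 CPM in the dexamethasone CD106+ library, where endothelial markers summed to 2593 CPM, against 138 and 149 CPM in the untreated CD106+ libraries. The mesenchyme groups differed in the level of Xist, the RNA that silences an X chromosome in females. It stood at 33133 and 20880 CPM in saline and at 374, 11111, 12.6 and 6.59 CPM in dexamethasone pools 1 to 4. In bulk samples, fewer cells of a type and less RNA per cell cannot be told apart. Nothing in the labels ties pools or libraries to different litters, and p-values therefore rest on how far these samples vary, perhaps for technical reasons.

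Most of the family was quiet in these bulk libraries of sorted fetal lung cells. No library or cell held a count of Ccl1, Ccl17, Ccl20, Ccl24, Ccl26, Ccl4, Ccl8, Ccr6 or Cxcr1. Another 16 genes had a mean under 1 CPM in each of the 5 bulk groups, 12 peaked between 1 and 5 CPM, and 23 reached 5 CPM or more in at least 1 group. A few genes held most of the counts: Cxcl12 and Ccl11 made up 55.2% of all chemokine and receptor counts in saline mesenchyme and 46.5% in dexamethasone mesenchyme, and Cxcl15 with Cxcl16 made up 87.2% in the CD106- fraction. The 60 genes together took 374 and 414 CPM in saline mesenchyme, 172 to 282 CPM in dexamethasone mesenchyme, 362 and 373 CPM in CD106-, 304 and 365 CPM in CD106+ and 763 CPM in the dexamethasone CD106+ library.

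**Figure D1:**
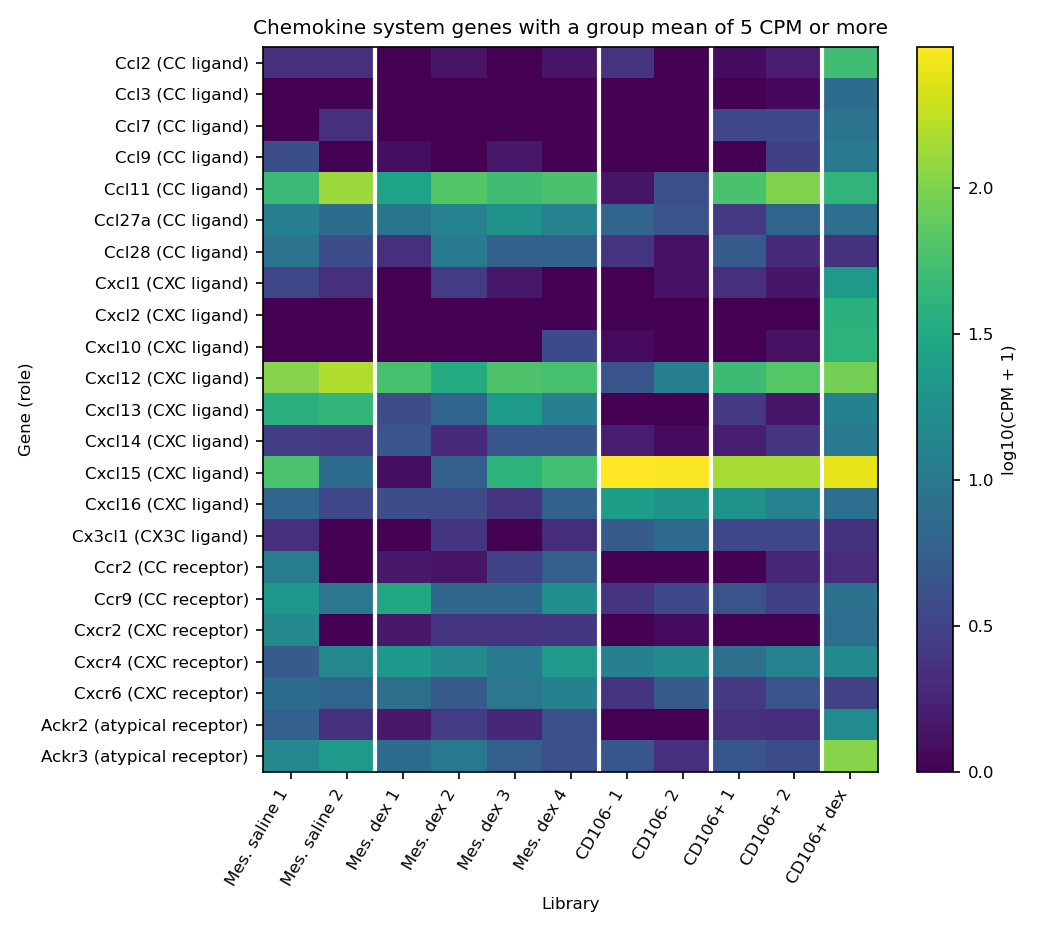
Levels of the 23 genes with a mean of 5 CPM or more in at least 1 bulk group, grouped by role (rows), in each of the 11 bulk libraries (columns), as log10 of CPM + 1. White lines part the groups; Cxcl12 and Ccl11 are high in mesenchyme and CD106+ columns, Cxcl15 is high in the CD106 fractions, and the last column, the dexamethasone CD106+ library, is the only one with Cxcl2 above 0.

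The genes lie in tight clusters in the GRCm38.p6 RefSeq annotation, with 14 of 60 on chromosome 11, 13 on chromosome 9 and 11 on chromosome 5. Ccl2, Ccl7 and Ccl11 are neighbours on chromosome 11 (82035577 to 82062955). Ccl11, known as eotaxin, which draws eosinophils, was found in all 11 bulk libraries, Ccl7 in 4 and Ccl2 in 8, the last at 1.35 CPM or less outside the dexamethasone CD106+ library. On chromosome 5, Cxcl15 (90794534 to 90803067) lies between Cxcl3 and Cxcl1. Cxcl15 reached 303 CPM in the CD106- fraction, where Cxcl3, Cxcl1 and Cxcl2 stayed at 0.330 CPM or less. The neighbours Cxcl1 and Cxcl2 were both highest in the dexamethasone CD106+ library, as were Ccl2 and Ccl7.

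Ligands and their receptors were set side by side in the same libraries. Cxcl12 had both of its receptors with it: the signalling receptor Cxcr4 had counts in all 11 bulk libraries, at 4.19 to 20.7 CPM, and the scavenging receptor Ackr3 had counts in all 11, at 1.17 to 108 CPM. For Ccl11, the signalling receptor Ccr3 gave 1 count in all bulk libraries. The atypical receptor Ackr2, which clears inflammatory CC chemokines, had counts in 9 of the 11, at up to 14.8 CPM. Cxcr5, the receptor of the B-cell attractant Cxcl13, had no count in either saline mesenchyme pool, where Cxcl13 stood at 37.1 and 43.2 CPM. Elsewhere Cxcr5 had counts in 5 bulk libraries, at most 2.72 CPM, in dexamethasone mesenchyme pool 2. Cx3cr1, the receptor of fractalkine (Cx3cl1), had no count in either CD106- library, where Cx3cl1 stood at 4.23 and 5.99 CPM. Elsewhere Cx3cr1 had counts in 4 bulk libraries, at most 3.40 CPM, in dexamethasone mesenchyme pool 2. Ccr9, the receptor of Ccl25, ranged from 5.78 to 29.1 CPM in mesenchyme pools, and Ccl25 from 0 to 3.59 CPM. Among the genes that overlap another gene are Ccr9, Cxcr5, Cxcr6, Cx3cr1, Cx3cl1, Ccl25, Cxcl16, Cxcl10, Ccl27a, Ccl3, Ccl6 and Ackr4. The use of strand in counting is not given in the sources used here, so part of their counts may belong to the neighbour. Reads of the near-identical copies Ccl21a, Ccl21b and Ccl21c, and of Ccl27a and Ccl27b, may also have been split.

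In sorted mesenchyme 2 hours after injection, Cxcl12 was lower in dexamethasone than in saline pools, and no chemokine or receptor was called higher. Of 14 genes of the family that passed the filter on low counts, 1 fell and 13 did not pass the test (edgeR quasi-likelihood test, Benjamini-Hochberg adjusted p under 0.05). Over all 11356 genes tested, 2.69% were called and 0.740% were called lower. The median log2 fold change of the 14 was -0.41, beside -0.01 over all genes tested.

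Cxcl12 (chromosome 6, 117168535 to 117181368) stood at 108 and 152 CPM in the saline pools. It stood at 56.1, 33.0, 61.2 and 56.6 CPM in dexamethasone pools 1 to 4. The groups did not overlap, and the means were 51.7 ± 12.7 against 130 ± 31.1 CPM (SD, n = 4 and 2). The log2 fold change was -1.26 (SE 0.29, edgeR adjusted p = 0.0211). The call was lost without saline pool 2 (edgeR adjusted p = 0.182) and without dexamethasone pool 1 (edgeR adjusted p = 0.0505), and with the chondrocyte marker level as a covariate (log2 fold change -1.07, edgeR adjusted p = 0.998).

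Of the receptors of Cxcl12, Ackr3 stood at 13.2 and 20.6 CPM in saline pools and at 6.63, 9.18, 4.50 and 3.02 CPM in dexamethasone pools. The groups did not overlap, but the difference did not pass (log2 fold change -1.45, edgeR adjusted p = 0.241). Cxcr4 stood at 4.19 and 13.2 CPM in saline pools and at 19.9, 13.6, 9.46 and 20.7 CPM in dexamethasone pools. Its groups overlapped, and it did not pass (log2 fold change 0.93, edgeR adjusted p = 0.516). The chemokine thus stood lower in every treated pool, while the ranges of its signalling receptor overlapped.

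Cxcl13 (chromosome 5, 95956939 to 95961068), which organises lymphoid tissue, stood at 37.1 and 43.2 CPM in saline pools. It stood at 2.84, 5.44, 21.6 and 10.6 CPM in dexamethasone pools. Every treated pool lay below both saline pools, and the log2 fold change was -1.96 (SE 0.58), yet it did not pass (edgeR adjusted p = 0.0931). By limma-voom it passed (log2 fold change -2.51, adjusted p = 0.00649), and with the chondrocyte covariate its log2 fold change was 0.05. In all, 4 of the 14 genes tested had groups that did not overlap, all lower with dexamethasone, where 23.2% of all genes tested did not overlap and 11.3% were lower.

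Ccl11 stood at 48.5 and 127 CPM in saline pools and at 26.8, 64.6, 51.8 and 57.7 CPM in dexamethasone pools. Saline pool 1 lay within the treated range, and Ccl11 did not pass (log2 fold change -0.73, edgeR adjusted p = 0.422; 0.07 without saline pool 2). Cxcl15 stood at 59.3 and 6.58 CPM in saline pools and at 0.240, 4.76, 39.2 and 52.4 CPM in dexamethasone pools. The 17 epithelial markers summed in the same pools to 345 and 53.1 CPM and to 42.85, 51.5, 388 and 291 CPM. The Cxcl15 groups overlapped widely, and the same 3 pools, saline pool 1 and dexamethasone pools 3 and 4, were high in Cxcl15 and in epithelial markers. Ccl27a, a skin chemokine, ranged from 6.58 to 10.7 CPM in saline and from 8.17 to 17.4 CPM in dexamethasone pools. The mucosal chemokine Ccl28 ranged from 2.88 to 7.78 CPM and from 1.18 to 9.52 CPM. Ccr2, the receptor of Ccl2 on monocytes, and Cxcr2, the receptor of Cxcl1 and Cxcl2 on neutrophils, were high in saline pool 1 alone, at 10.2 and 13.8 CPM, and had no count in saline pool 2. Cxcr2 was too low to test. Cxcr6, the receptor of Cxcl16, stood at 6.58 and 5.35 CPM in saline pools and at 7.34, 4.08, 8.56 and 11.3 CPM in dexamethasone pools, with overlapping groups (edgeR adjusted p = 0.857).

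Markers of other cells differed between these groups. Chondrocyte markers summed to 682 and 1609 CPM in saline pools and to 17.99 to 411 CPM in dexamethasone pools. All 8 tested did not overlap and were lower with dexamethasone, and 0 were called. Of all genes tested, 23.2% did not overlap and 11.3% did so with dexamethasone lower. Of the 8, Col9a2, Acan, Lect1 and Sox9 passed the filter on low counts through the saline pools alone, so the count of 8 carries no weight of its own. Leukocyte markers summed to 32.5 and 152 CPM in saline and to 19.0 to 61.2 CPM in dexamethasone pools, with 4 of 20 at 0 in both saline pools. The part of these cells in the chemokine differences was not tested beyond the covariates named above and below. The chondrocyte marker level separated saline from dexamethasone pools, so a fit with it as a covariate can hardly tell it from treatment. Over all genes tested, 306 were called without that covariate and 23 with it. The calls lost with it, of Cxcl12 above and of the genes below, therefore cannot decide between the 2.

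**Figure D2:**
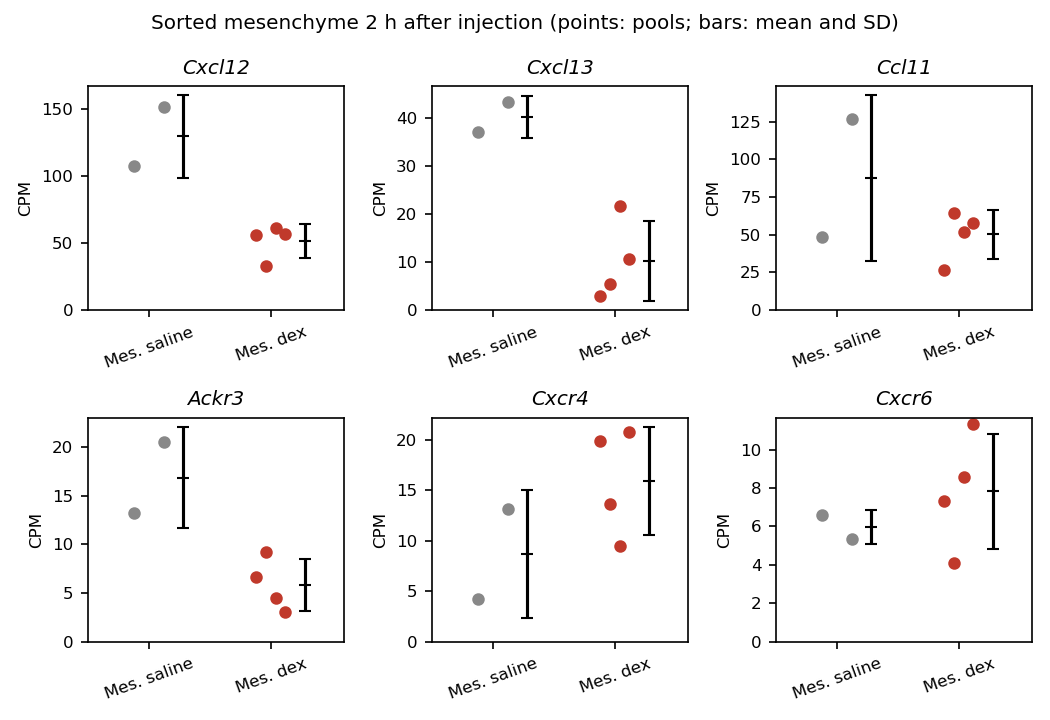
CPM of 6 chemokine and receptor genes in sorted mesenchyme 2 hours after saline (grey, 2 pools) or dexamethasone (red, 4 pools), with bars for the mean and SD. The groups do not overlap for Cxcl12, Cxcl13 and Ackr3, and overlap for Ccl11, Cxcr4 and Cxcr6.

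Lists of genes around the chemokine pathway were read against the 2.69% of all genes called in the same pools. Of 21 tested inducers of chemokine transcription and other inflammatory genes, 3 rose and 0 fell. Il6ra, the interleukin 6 receptor, stood at 35.9 and 49.8 CPM in saline and at 155 to 226 CPM in dexamethasone pools (log2 fold change 2.23, edgeR adjusted p = 0.000173). Nfkbia, which encodes the inhibitor that holds NF-kB in the cytoplasm, stood at 10.8 and 20.2 CPM against 45.0 to 70.0 CPM (log2 fold change 1.98, edgeR adjusted p = 0.00698). The third was Tnfrsf1b, a receptor of tumour necrosis factor, at 0.410 and 3.59 CPM against 9.05 to 26.2 CPM (log2 fold change 3.30, edgeR adjusted p = 0.0288). It cleared the filter on low counts through the dexamethasone pools alone. Of 23 tested genes of chemokine cleavage and presentation, the syndecan Sdc4 rose by 1.95 on the log2 scale and the glypican Gpc6 fell by 1.55 (edgeR adjusted p = 0.0129 and 0.00874), both being heparan sulfate proteoglycans. Of 31 tested genes of receptor signalling, a share called near that of all genes, only the G-protein subunit Gna13 changed (log2 fold change 0.99, edgeR adjusted p = 0.0448). Of 7 tested chemokine system genes outside the symbol rule, 0 changed by edgeR, and the most abundant was Cmklr1, the chemerin receptor, at 93.4 to 164 CPM. With the chondrocyte marker level as a covariate all 6 calls were lost (edgeR adjusted p = 0.11 for Il6ra, 0.895 for Nfkbia, 0.3 for Tnfrsf1b, 0.924 for Sdc4, 0.998 for Gpc6 and 0.998 for Gna13), and with the Xist covariate those of Sdc4 and Gpc6 (edgeR adjusted p = 0.119 and 0.111). Il6ra remained called with each pool left out in turn, while Nfkbia, Sdc4 and Gpc6 lost theirs without saline pool 1 (edgeR adjusted p = 0.0714, 0.0753 and 0.0882). Gna13 and Tnfrsf1b lost theirs without saline pool 2 (edgeR adjusted p = 0.215 and 0.188), dexamethasone pool 1 (0.115 and 0.0583) or dexamethasone pool 2 (0.0756 and 0.0754). Gna13 also failed the test when saline pool 1 or dexamethasone pool 4 was dropped (edgeR adjusted p = 0.11 and 0.0711), and Tnfrsf1b without dexamethasone pool 3 (edgeR adjusted p = 0.0575).

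Between the untreated fractions, Ccl11, Cxcl12 and Ccl7 were higher in CD106+ than in CD106- cells, and Cxcl15 was lower. Of 11 genes of the family tested, 3 were called higher and 1 lower, where 10.0% of all 12364 genes tested were called, 6.67% higher and 3.35% lower. Of the 3, Ccl11 and Ccl7 were tested only because the CD106+ libraries passed the filter on low counts, so the count of 3 higher carries no weight of its own. For 7 of the 11 the fractions did not overlap, beside 47.6% of all genes tested. The median log2 difference of the 11 was -0.22, beside 0.05 over all genes.

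Ccl11 (chromosome 11, 82057832 to 82062955) stood at 0.380 and 3.00 CPM in CD106- and at 58.4 and 101 CPM in CD106+ libraries (log2 difference 5.42, SE 0.56, edgeR adjusted p = 5.66e-06). Cxcl12 stood at 3.46 and 10.7 CPM in CD106- and at 49.7 and 66.7 CPM in CD106+ libraries (log2 difference 2.96, SE 0.45, edgeR adjusted p = 8.84e-05). The fractions were far apart for both genes. Ccl7 (chromosome 11, 82045712 to 82047525), a monocyte attractant, had no count in either CD106- library and stood at 2.41 and 2.52 CPM in CD106+ libraries (edgeR adjusted p = 0.00985). Set against 3 counts over both CD106- libraries, the limit for a gene at 0, it was at least 9.21-fold higher. Ccl7 and Ccl11 passed the filter on low counts through the CD106+ libraries alone.

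Cxcl15 took the other direction, at 303 and 296 CPM in CD106- against 144 and 142 CPM in CD106+ libraries (log2 difference -1.11, SE 0.27, edgeR adjusted p = 0.00753). Epithelial markers moved the same way, with 7 of 17 tested lower and 0 higher, and they summed to 6957 and 7536 CPM in CD106- and to 3335 and 4977 CPM in CD106+ libraries. Epcam stood at 492 and 341 CPM in CD106- against 205 and 198 CPM in CD106+ libraries. All 11 mesenchyme markers tested were called higher in CD106+ libraries, the direction of Ccl11 and Cxcl12, as were 7 of 10 endothelial markers. Over all genes tested, 6.67% were called higher and 3.35% lower. Meox2, Tcf21, Tie1, Emcn, Pecam1 and Ramp2 passed the filter on low counts through the CD106+ libraries alone, so the mesenchyme and endothelial counts carry no weight of their own. The part of these cells in the chemokine differences was not tested. Leaving out either CD106- library ended the calls of Cxcl15 (edgeR adjusted p = 0.143 and 0.166) and Ccl7 (edgeR adjusted p = 0.208 and 0.227), while Ccl11 and Cxcl12 kept theirs without any 1 library. Ccl7 was too low to test without CD106+ library 2.

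Cxcl16, a membrane-bound chemokine, stood at 23.66 and 18.48 CPM in CD106- and at 17.7 and 11.5 CPM in CD106+ libraries (edgeR adjusted p = 0.56). Cx3cl1, likewise tethered to the cell surface, stood at 4.23 and 5.99 against 2.41 and 2.38 CPM (log2 difference -1.14, edgeR adjusted p = 0.456). Both lay lower in each CD106+ library, by less than the test could call. Cxcr4 stood at 11.2 and 14.3 against 7.22 and 11.6 CPM (edgeR adjusted p = 0.697). Ackr3 stood at 3.65 and 1.17 against 3.61 and 2.66 CPM, with overlapping fractions (edgeR adjusted p = 0.884). Thus only the ligand of the Cxcl12, Cxcr4 and Ackr3 group passed the test. Cxcl13 and Ackr2 were too low to test, with no count in CD106- and 0.420 to 1.60 CPM in CD106+ libraries.

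**Figure D3:**
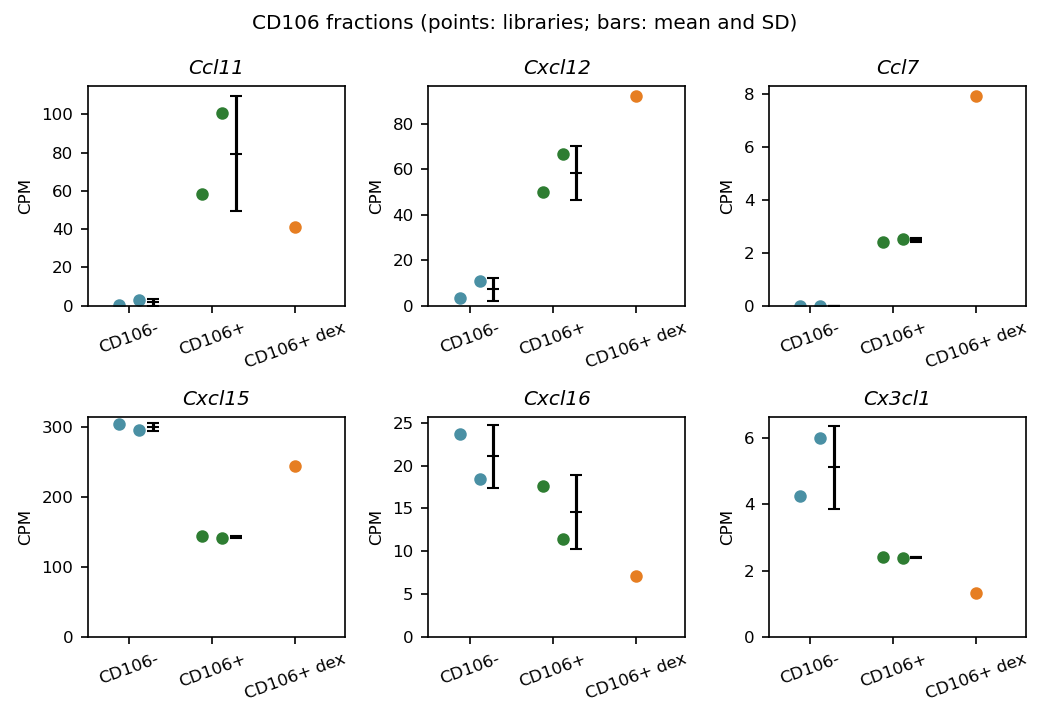
CPM of 6 chemokine genes in CD106- (blue, 2 libraries), CD106+ (green, 2 libraries) and dexamethasone CD106+ cells (orange, 1 library), with bars for the mean and SD where there are 2 libraries. Ccl11, Cxcl12 and Ccl7 are near 0 or low in CD106- and higher in CD106+ libraries, while Cxcl15, Cxcl16 and Cx3cl1 lie lower in CD106+ libraries.

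Of the 6 tested chemokine system genes outside the symbol rule, 3 were higher in CD106+ cells and 0 lower. Cmklr1 stood at 0.380 and 0 CPM in CD106- against 28.1 and 81.4 CPM in CD106+ libraries (edgeR adjusted p = 7.23e-07), and Rarres2, which encodes its ligand chemerin, at 0.190 and 1.21 against 2.01 and 15.1 CPM (edgeR adjusted p = 0.0246). The third was the chemokine-like gene Cmtm3 (edgeR adjusted p = 0.0162). Cmklr1, Rarres2, and below Tnfaip6 and Il6ra, passed the filter on low counts through the CD106+ libraries alone, so that their direction and the count of 3 higher carry no weight of their own. For the lists that follow, 10.0% of all genes were called between the fractions, 6.67% higher and 3.35% lower. Of 33 signalling genes, 4 were higher and 1 lower, led by Arrb1, Gng2 and Rgs2, all higher. Arrb1 encodes an arrestin that ends receptor signalling, and stood at 24.4 and 34.3 against 96.9 and 142 CPM (log2 difference 1.96, edgeR adjusted p = 5.38e-05). Of 24 genes of cleavage and presentation, 3 were higher and 3 lower, led by the syndecan Sdc2 and the matrix protease Mmp2, both higher, and by Dpp4, a peptidase that trims chemokines, which was lower. Dpp4 stood at 242 and 214 CPM in CD106- against 110 and 86.8 CPM in CD106+ libraries (log2 difference -1.25, edgeR adjusted p = 0.0033). Of 23 inducers, 3 were higher and 2 lower, led by Il6ra and Tnfaip6, higher, and Il33, lower. Without CD106- library 1 the calls of Rarres2, Cmtm3, Sdc2, Dpp4, Il6ra and Il33 were lost (edgeR adjusted p = 0.145, 0.125, 0.106, 0.0866, 0.0522 and 0.0874). Those of Cmtm3, Tnfaip6 and Il33 were lost without CD106- library 2 (edgeR adjusted p = 0.17, 0.0986 and 0.152), and those of Rarres2, Cmtm3 and Tnfaip6 without CD106+ library 2 (edgeR adjusted p = 0.741, 0.17 and 0.0955).

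In the dexamethasone CD106+ library the largest ratios of the family belonged to inflammatory chemokines. This comparison sets 1 library against 2 untreated ones deposited in another table, so it has no test. Ratios are log2 of CPM plus a pseudocount of 1, and intervals cover counting error only. Of 46 genes of the family with a count in any of these 3 libraries, the treated library lay above both untreated ones for 30 and below both for 5, where 35.4% of all genes with a count lay above and 39.5% below. Of 19 at 5 CPM or more, 11 were 4-fold or more higher and 0 lower, where 5.55% of all such genes were higher and 3.69% lower. The treated library lay above both untreated ones for 17 of the 19 and below both for 2, where 32.1% of all such genes lay above and 46.3% below. But 14 of the 19 reached 5 CPM only through the treated library, and of those 11 were 4-fold higher, where 47.0% of all such genes were. Of the 5 with an untreated mean of 5 CPM or more, 0 were 4-fold higher, where 1.89% of all such genes were. With a pseudocount of 5, the 4-fold genes numbered 5, namely Cxcl1, Cxcl2, Cxcl10, Ccl2 and Ackr3.

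Among the ligands, Cxcl2 had no count in any other bulk library and stood at 37.7 CPM here, at least 152-fold higher than untreated CD106+ cells if those are given 3 counts over both libraries. Cxcl1 stood at 21.1 CPM against 1.20 and 0.420 CPM (log2 ratio 3.61). Both attract neutrophils through Cxcr2, which itself stood at 6.86 CPM against no count, at least 27.7-fold higher. Cxcl10, an interferon-induced attractant of T cells, stood at 39.3 CPM against 0 and 0.280 CPM, a ratio of counts of 238 with a 95% interval of 64.8 to 1985. Ccl2, the main monocyte attractant, stood at 51.2 CPM against 0.200 and 0.560 CPM (log2 ratio 5.24). Among the other ligands, Ccl3, Ccl9, Cxcl13 and Cxcl14 stood at 6.595, 9.50, 11.3 and 9.23 CPM, with log2 ratios of 2.83, 2.41, 2.62 and 2.35. Of these, Ccl9 fell to 1.83 against untreated library 2 alone.

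Among the receptors, Ackr3 stood at 108 CPM against 3.61 and 2.66 CPM, a log2 ratio of 4.72, and held the second largest count of the family in that library after Cxcl15. Ackr2, which clears inflammatory CC chemokines, stood at 14.8 CPM against 1.20 and 1.12 CPM (log2 ratio 2.87). Cxcr4 differed little, at 14.2 CPM against 7.22 and 11.6 CPM.

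The 4 chemokines called between the untreated fractions differed less than 4-fold in the treated library. Cxcl12 stood at 92.1 CPM against 49.7 and 66.7 CPM, and Ccl11 at 41.2 CPM against 58.4 and 101 CPM (log2 ratios 0.65 and -0.93). Ccl7 stood at 7.91 CPM against 2.41 and 2.52 CPM, above both (log2 ratio 1.36). Cxcl15 stood at 243 CPM against 144 and 142 CPM (log2 ratio 0.77). Epithelial markers summed to 2346 CPM against 3335 and 4977 CPM, with 9 of 17 below both untreated libraries and 5 above both. These counts lay near the shares of all genes at 5 CPM or more, 46.3% below both and 32.1% above both. Among the 5 above both was Scgb1a1, a club cell gene, at 210 CPM against 4.41 and 4.77 CPM. Cxcl16 stood at 7.12 CPM against 17.7 and 11.5 CPM, and Cxcl16 and Ccl11 were the 2 of 19 genes below both untreated libraries.

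**Figure D4:**
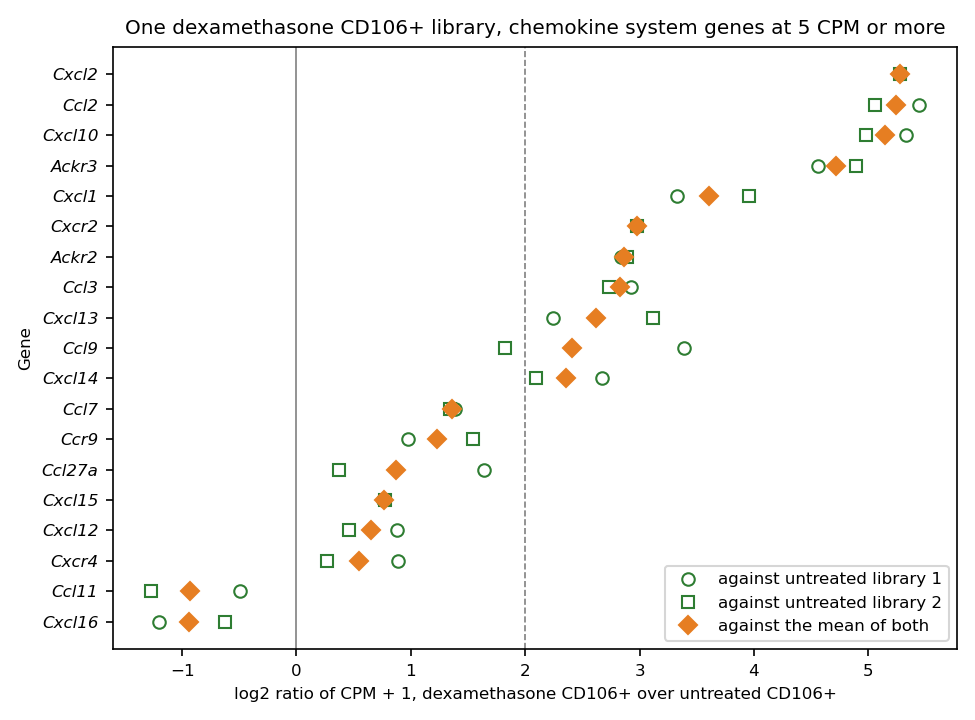
Log2 ratio of CPM + 1 in the dexamethasone CD106+ library over the mean of the 2 untreated CD106+ libraries (diamonds) and over each of them (circles and squares), for the 19 genes at 5 CPM or more. The dashed line marks a 4-fold difference, which 11 genes pass, and only Ccl11 and Cxcl16 lie left of 0.

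Markers of other cells were also high in this library. Endothelial markers summed to 2593 CPM against 138 and 149 CPM, with 11 of 13 at 4-fold or more higher, 5 of them among the 7 with an untreated mean of 5 CPM or more, such as Pecam1, which encodes the CD31 used for depletion in the accessibility samples, at 508 CPM against 22.06 and 16.54 CPM. Leukocyte markers summed to 198 CPM against 12.2 and 27.5 CPM, with 7 of 9 at 4-fold or more higher, 6 of these reaching 5 CPM in the treated library alone, 5 of 20 with no count, and Ptprc at 12.9 CPM against 0 and 0.280 CPM. Vcam1 was lower, at 268 CPM against 551 and 687 CPM. Of 27 inducers and inflammatory genes at 5 CPM or more, 11 were 4-fold higher and 0 lower. Of these 11, 7 reached 5 CPM in the treated library alone, where 47.0% of all such genes were 4-fold higher. The other 4 were among the 19 with an untreated mean of 5 CPM or more, where 1.89% of all such genes were. The same shares apply to the endothelial and leukocyte counts. The 11 included Ptgs2, the inducible cyclooxygenase, at 176 CPM against 1.60 and 1.82 CPM. They also included the NF-kB target genes Tnfaip3, at 183 CPM against 9.83 and 7.71 CPM, and Nfkbia, at 126 CPM against 8.22 and 12.8 CPM. In mesenchyme both stood higher in every dexamethasone pool than in either saline pool, as 11.9% of all genes tested did. Tnfaip3 stood there at 23.0 to 41.2 against 5.98 and 16.9 CPM but was not called, while Nfkbia was. In the dexamethasone CD106+ library, genes of chemokine cleavage and presentation lay the other way from the inducers, with 18 of 24 below both untreated libraries and 2 above both. Of all genes at 5 CPM or more, 46.3% lay below both and 32.1% above both. Of the 24, 0 differed by 4-fold, and their median log2 ratio was -0.92, beside -0.21 over all genes. The part of these cells and genes in the chemokine levels was not tested, and treatment cannot be told apart from library or table.

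Some inflammatory chemokines stood high in the dexamethasone CD106+ library, among them Cxcl1, Cxcl2, Cxcl10 and Ccl2. Others did not: Ccl4, Ccl8 and Ccl20 had no count there, and Cxcl3 and Cxcl9 stood at 0.53 and 1.58 CPM. The promoters of the family were searched for the NF-kB element, here GGG, any 3 bases and then TTCC on either strand. The search covered the 250 bases before each RefSeq start site (GRCm38.p6). Windows were found for 44 of the 60 genes, 51 windows in all. The element was in 9 of the 51 (17.6%), against 4.65% of 32851 windows of all genes. The 9 genes were Ccl1, Ccl9, Ccl20, Ccr3, Ccr6, Cxcl1, Cxcl2, Cxcl3 and Cxcl10. Of the 11 genes that were 4-fold higher, 10 had a window and 4 held the element, namely Ccl9, Cxcl1, Cxcl2 and Cxcl10. Of the other 8 at 5 CPM or more, 5 had a window and 0 held it. The element also lay before genes with no count here, Ccl1, Ccl20 and Ccr6, so a match is a description of letters and not of a bound site. The glucocorticoid receptor hexamer AGAACA was in 8 of the 51 windows (15.7%), against 16.1% of all windows, on either strand. The paired form, AGAACA, any 3 bases and TGTTCT, was in 0 of the 51 and in 3 of all windows. The promoters of Cxcl1, Cxcl2 and Cxcl10 are shown because they carry the element in 2 or more places, and that of Cxcl12 because it has no match. Each is written 5′ to 3′ on the gene's strand and ends at the base before the start site, with matches on either strand in capitals; overlapping matches on the 2 strands run together.
Cxcl1, chr5:90890995-90891244, plus strand: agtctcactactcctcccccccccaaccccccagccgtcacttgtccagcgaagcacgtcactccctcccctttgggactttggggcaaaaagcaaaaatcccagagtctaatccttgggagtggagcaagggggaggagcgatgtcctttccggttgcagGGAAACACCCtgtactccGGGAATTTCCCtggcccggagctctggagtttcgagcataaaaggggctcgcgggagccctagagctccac
Cxcl2, chr5:90903649-90903898, plus strand: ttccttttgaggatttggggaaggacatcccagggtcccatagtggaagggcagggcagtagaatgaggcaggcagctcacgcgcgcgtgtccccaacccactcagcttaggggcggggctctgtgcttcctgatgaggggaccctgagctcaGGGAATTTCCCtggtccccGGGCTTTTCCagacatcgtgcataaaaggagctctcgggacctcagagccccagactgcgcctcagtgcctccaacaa
Cxcl10, chr5:92348890-92349139, minus strand: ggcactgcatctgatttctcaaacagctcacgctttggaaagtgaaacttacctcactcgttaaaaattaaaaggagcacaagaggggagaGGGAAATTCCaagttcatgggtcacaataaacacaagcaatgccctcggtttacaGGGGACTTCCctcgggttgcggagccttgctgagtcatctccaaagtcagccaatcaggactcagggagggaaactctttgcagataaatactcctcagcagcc
Cxcl12, chr6:117168285-117168534, plus strand: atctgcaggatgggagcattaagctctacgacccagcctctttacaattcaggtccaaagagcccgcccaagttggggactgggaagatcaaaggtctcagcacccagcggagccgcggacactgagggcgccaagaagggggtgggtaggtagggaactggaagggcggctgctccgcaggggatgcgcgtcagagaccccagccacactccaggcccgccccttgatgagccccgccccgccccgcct
The element GGGAATTTCC begins 71 bases before the start site in Cxcl1 and 97 bases before it in Cxcl2, and in both it overlaps its own match on the other strand. Cxcl10 holds the different forms GGGAAATTCC and GGGGACTTCC, 159 and 104 bases before its start site.

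Single cells showed which chemokine genes were carried by which cell. The glucocorticoid target genes did not follow the labels in these cells: the median level of Tsc22d3 was 469 CPM in the cells labelled saline and 46.2 CPM in those labelled dexamethasone, and Fkbp5 was found in 7 of 11 and 5 of 15 cells. A count of 23 of the 60 genes was found in at least 1 of the 26 cells, of 13 in a dexamethasone cell and of 21 in a saline cell, 11 in both. Thinned to the lowest total, these numbers were 10 and 16. Cells held few of these genes: 1 to 5 per dexamethasone cell and 2 to 9 per saline cell. For 11 genes, exactly 1 of the 26 cells held 10 counts or more. No cluster was made of so few cells, and no doublet caller was run. Markers were mixed in most cells, with the surfactant gene Sftpc found in all 26 and Col1a1 in 25, while Epcam, Wt1 and Twist2 had no count in any. The labels of 1 index were shared between the groups, and no cell's values were identical to another's.

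Ccl11 was found in 5 of 15 dexamethasone cells (33.3%, exact 95% interval 11.8% to 61.6%) and in 0 of 11 saline cells. For 0 of 11 cells, 3 divided by the number of cells allows a share of up to 27.3%, and the exact 95% upper limit is 28.5%. Both limits cover counting error among cells of 1 sample only. The shares were the same after thinning. The 5 cells, numbers 1, 2, 6, 7 and 14, held 33.0, 653, 231, 418 and 277 CPM. All had the mesenchyme genes Tcf21, at 775 to 4282 CPM, and Col1a1, at 162 to 926 CPM, and Pecam1 was at 0 to 2.64 CPM. With 1 sample per group there is no test, and of 8040 genes found in 5 or more cells, 0.933% were likewise found in 5 or more dexamethasone cells and no saline cell. The bulk mesenchyme pools, taken 2 hours after another dose, had Ccl11 in every pool of both groups.

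Cxcl12 was found in 11 of 15 dexamethasone and 7 of 11 saline cells, mostly at a few counts. Of its counts over all cells, 68.2% were in saline cell 4, at 1863 CPM, where Col1a1 was at 0, Tcf21 at 1.14 and Pecam1 at 0 CPM. Saline cells 2, 7 and 9 held 247, 106 and 64.2 CPM, and the highest dexamethasone cell 51.0 CPM. From 10 counts, the cells with Cxcl12 were 3 of 15 (20.0%) and 4 of 11 (36.4%). Cxcl15 was found in 13 of 15 and 8 of 11 cells, but at 8.83 CPM or less in every saline cell, and its highest values were 197 CPM in dexamethasone cell 2 and 90.9 CPM in dexamethasone cell 15. From 10 counts, 5 and 1 cells held it.

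Receptors marked a few cells strongly. Ackr2 reached 1325 CPM in saline cell 6, beside the endothelial genes Cdh5 at 1323 CPM and Pecam1 at 676 CPM, and with Tcf21 at 911 CPM and Col1a1 at 252 CPM. Saline cell 1, with Cdh5 at 1359 CPM and Pecam1 at 1099 CPM, held Ackr2 at 25.9 CPM. Ackr3 reached 248 CPM in saline cell 5 and 310 CPM in dexamethasone cell 9, where Cdh5 was at 2.34 and 255 CPM. Saline cell 8 held Cxcr2 at 1139 CPM, Ccr1 at 335 CPM, Ccl6 at 266 CPM, Cxcl2 at 28.2 CPM and Cxcr4 at 13.1 CPM. Cxcr2, Ccr1 and Ccl6 are genes of myeloid cells, while Cxcr4 had counts in all 11 bulk libraries. Saline cell 8 also held the leukocyte genes Ptprc, at 460 CPM, Tyrobp, at 532 CPM, and Fcer1g, at 634 CPM. But its level of the leukocyte gene Lyz2, 9.07 CPM, was near the median of the saline cells, 8.51 CPM, and it held Tcf21 at 2362 CPM as well. Ccr2 reached 920 CPM in saline cell 3 and 301 CPM in dexamethasone cell 11, with Ptprc at 11.2 and 23.2 CPM. The inflammatory ligands high in the dexamethasone CD106+ library were rare here, with Cxcl10 in 1 saline cell at 238 CPM, Cxcl1 in 1 dexamethasone cell at 51.6 CPM and Ccl2 in none of 26. Cxcl2 was found in 4 saline cells, at 28.2 CPM in cell 8 and at 2.34 CPM or less in the others.

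**Figure D5:**
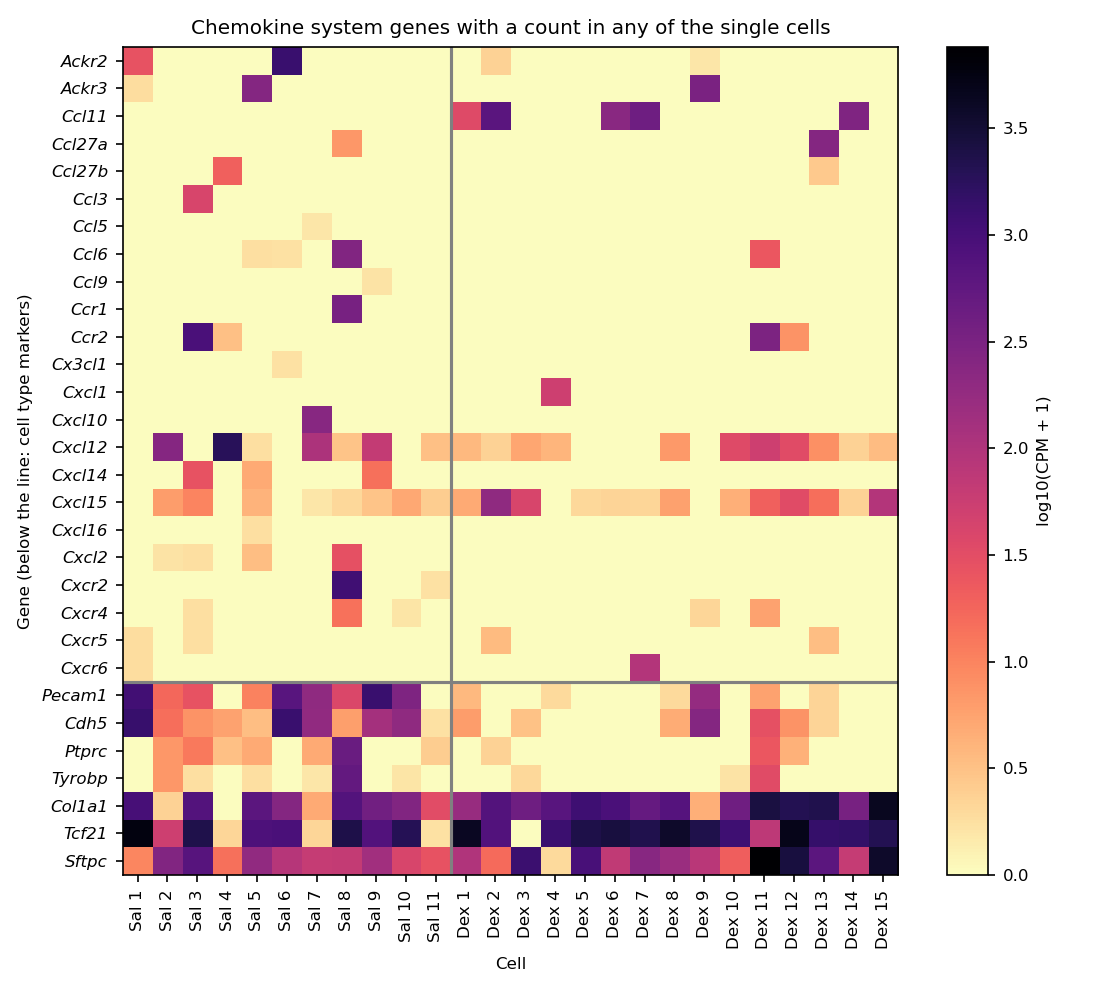
Levels, as log10 of CPM + 1, of the 23 chemokine and receptor genes with a count in any of 26 cells, with 7 marker genes below the line, in 11 saline cells (left) and 15 dexamethasone cells (right). Ccl11 appears in 5 dexamethasone cells and no saline cell, and most other genes are strong in 1 or 2 cells.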

How the data were processed

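The authors deposited 4 tables of expected counts per gene symbol, covering 24371 genes and not normalized, judged from their totals; between 5.35 and 9.21% of a bulk library's values had decimals. The submitters' processing notes name mm10 as build and the tools Partek, TopHat2, HOMER, MACS2, Bowtie2 and Trim Galore; how reads were counted, and whether by strand, is not given in the sources used here. For the dexamethasone CD106+ library the column name matches no label, and it was assigned through the table that the sample's description names.

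Expected counts were rounded, filtered by filterByExpr, scaled by TMM and tested with edgeR 4.0.16 (quasi-likelihood, robust; R 4.3.3; Benjamini-Hochberg adjusted p under 0.05), each fit holding its own 2 groups alone. Levels are CPM of column totals. Genes and lists were chosen with earlier results of these data known. Genes are given per library where they passed a test, reached 5 CPM in a bulk group or had a count in 5 cells; of each list, genes past the threshold are named by smallest p, where the rule allowed up to 4 and 3 at most are named, and otherwise the most abundant. Alternatives were other scalings and filters, DESeq2 1.42.0, limma-voom (limma 3.58.1), covariates, leaving out each library, a block for the replicate number, other pseudocounts and thinned cells. Scripts were tested on simulated data. No replicate pair agreed within sampling noise. The values of 1 gene of the family are not reported here, though it stays in the counts.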

Additional observations from a re-analysis of the deposited data

Results flagged for a closer look

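In sorted mesenchyme, Ackr4, an atypical receptor that clears Ccl19 and Ccl21, stood at 6.41 CPM in dexamethasone pool 4, far from the other 3 pools at 0.680 to 1.42 CPM. The 14 tested genes were each checked for such a pool, and chance alone marks about 1 in 20 genes checked. Ackr4 overlaps the gene Acad11, so part of its counts may belong to that neighbour.

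For 3 genes, the dexamethasone CD106+ library lay above both untreated libraries while every dexamethasone mesenchyme pool lay below both saline pools. Their log2 ratios in the CD106+ library were 4.72 for Ackr3, 2.62 for Cxcl13 and 0.65 for Cxcl12. In mesenchyme their log2 fold changes were -1.45, -1.96 and -1.26. The difference between the experiments was not tested, and it cannot be told apart from sort, time after injection and table.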

How the results depend on the processing

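In mesenchyme, 306 genes were called by edgeR; the number was 598 with no filter on low counts, 494 by DESeq2, 186 with an Xist covariate, 196 with a leukocyte and 23 with a chondrocyte marker covariate, and 179 to 335 with a pool left out, lowest without dexamethasone pool 1. The family's calls, 1 at first, were 2 with no filter, by limma-voom and with the Xist covariate, 0 with the chondrocyte covariate, and 0 to 2 with a pool left out. Between the fractions, 1239 genes were called, and 546 without CD106- library 1, 686 without CD106- library 2 and 2756 without CD106+ library 1; the family's 4 calls became 2 to 4. Fits with 1 saline pool or 1 library of a fraction assume that it varies like the others. In the dexamethasone CD106+ library, 11 genes of the family were 4-fold higher, 5 with a pseudocount of 5 and 10 to 11 with an untreated library left out. In cells, 13 genes of the family in dexamethasone cells became 8 from 10 counts, and 21 in saline cells became 13 from 10 CPM.

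Beyond the losses given with the results, Gna13 lost its call with upper quartile factors, library totals alone or the leukocyte covariate (edgeR adjusted p = 0.0564, 0.0651 and 0.123), and by limma-voom Tnfrsf1b in mesenchyme and Rarres2 in the fractions did (adjusted p = 0.201 and 0.104). Only differences that did not pass the test changed direction. With the chondrocyte covariate, log2 fold changes in mesenchyme were 0.90 for Ccl28, 1.15 for Ccr2, -1.84 for Ccr9, 0.05 for Cxcl13, 3.41 for Cxcl15 and -0.26 for Cxcr4. With the leukocyte covariate they were 0.59 for Ccl28, 3.29 for Ccr2, 1.69 for Cxcl15 and 0.08 for Cxcl16. With the Xist covariate they were 0.53 for Ccl28, -0.06 for Ccr9 and -0.55 for Cxcr6. Ccr2 stood at 0.33 by limma-voom, and Ccl28 at 0.01 with no filter or a CPM filter and at 0.0 without Rn45s or without X and Y genes. With a pool left out, ranges that changed sign were -0.66 to 0.0 for Ackr4, -1.21 to 0.07 for Ccl11, -0.59 to 0.94 for Ccl28, -2.40 to 5.49 for Ccr2, -0.56 to 0.87 for Ccr9, -1.29 to 1.97 for Cxcl15 and -0.83 to 0.39 for Cxcl16. Between the fractions they were -0.23 to 1.32 for Ackr3, -1.38 to 0.18 for Ccl27a, -0.10 to 0.98 for Ccr9 and -0.84 to 0.85 for Cxcr6. The cause was not tested.

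The labels do not say that a replicate number marks a shared sort or litter, and samples with the same number were not seen to deviate together: the correlations were -0.051 and 0.055 in mesenchyme and 0 in the fractions. With the number as a replicate block, 154 genes were called in mesenchyme, and the family's 1 call was Cxcl13 (log2 fold change -3.27, edgeR adjusted p = 0.034), with Cxcl12 at an adjusted p of 0.108 and Cxcr6 at a log2 fold change of -0.06; the calls of Sdc4, Tnfrsf1b and Gna13 were lost (edgeR adjusted p = 0.0999, 0.158 and 0.0542). In the fractions the block gave 1276 genes and 4 of the family.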
